A study of Rattus norvegicus with 27 samples.

Results

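Broad unmethylated CpG-rich domains of the rat genome were described in the renal outer medulla, a kidney zone rich in thick ascending limbs. They were found in reduced representation bisulfite sequencing (RRBS) data, in which a methylated cytosine is still read as C and an unmethylated cytosine as T. A domain was defined as a run of 4 or more consecutive 500 bp bins on an autosome, each with at least 10 CpG sites and a methylation level under 10%. Sites were CpGs with at least 10 reads in all 12 libraries of the second of 2 deposited tables, and the level of a bin was the mean over those libraries of the methylated share of its reads. The rule found 1573 bins in 359 domains among 189815 autosomal bins with a site, or 0.829% of them. The second table therefore chose the domains, and its low levels are a description, whereas the first table was not used in the choice.

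In mammals most CpGs are methylated, and CpG islands, the CpG-dense stretches at many gene starts, are the main exception. Methylation valleys, unmethylated stretches longer than a usual island, have been described in human and mouse cells. There they often hold genes for transcription factors of development and carry Polycomb marks where those genes are silent. Enzymes of the DNMT3 family place new methyl groups, and TET enzymes oxidise methylcytosine as a step towards its removal.

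The animals were Dahl salt-sensitive (SS) rats, an inbred strain that becomes hypertensive when fed much salt, and each library came from 1 rat. The first table covers the colonies MCW and CRL. MCW_HS (n = 4) and CRL_HS (n = 4) rats were moved at 6 weeks of age to the purified diet AIN-76A at 4% NaCl and kept on it for 14 days. MCW_LS rats (n = 3) ate AIN-76A with 0.4% NaCl until 8 weeks of age, and CRL_LS rats (n = 4) a non-purified diet, 5L2F, with 0.75% NaCl until 8 weeks. In CRL rats the type of diet therefore changed together with the salt, and the effects of each cannot be told apart. The second table holds MCW SS rats. HS_DT rats (n = 4) received GapmeRs, antisense oligonucleotides, against Dnmt3a and Tet3 into the kidney at 2 mg/kg each, with 4% NaCl for 7 (the unit is not given). HS_SCR rats (n = 4) were given a scrambled GapmeR at 4 mg/kg and 4% NaCl for 7 days. PRE_LS rats (n = 4) had the same surgery on 0.4% NaCl and were sampled before GapmeR and salt would have begun. HS_SCR and PRE_LS rats thus differed in salt, GapmeR and time, which cannot be told apart. The tissue was whole outer medulla, so a low level is an average over its cell types. Expression was not analysed here, so neither the tissue label nor the knockdown was checked.

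Summed over CpGs, libraries had 35040331 to 95102303 reads (first table) and 174400859 to 257658964 reads (second table). A domain site averaged 30.6 to 76.1 reads in a library of the first table, against 101 to 154 for libraries of the second. MCW_HS replicate 3 and MCW_LS replicate 2, the deepest libraries of the first table, had the highest domain levels there, 1.20% and 1.13%. In the other 13 rats of that table the domain level was 0.862 to 1.05%. In both rats the unmethylated bins outside domains were also the highest, at 1.11% and 1.02%. The part of depth in these levels was not tested.

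The promoters of 4 genes whose starts lie in domains are shown with their measured CpGs: Pax2, a regulator of kidney development; Sox2, a factor of stem and neural progenitor cells; Gadd45b, a stress-response gene; and Tlx3, a homeobox gene of neuron development. Each line gives the 250 bases before the gene start, 5′ to 3′, from RefSeq (build GRCr8), at chr1:253565672-253565921 on the plus strand, chr2:119464881-119465130 on the plus strand, chr7:9430719-9430968 on the minus strand and chr10:18296552-18296801 on the minus strand. Capitals mark the CpGs that were sites of the second table.
Pax2: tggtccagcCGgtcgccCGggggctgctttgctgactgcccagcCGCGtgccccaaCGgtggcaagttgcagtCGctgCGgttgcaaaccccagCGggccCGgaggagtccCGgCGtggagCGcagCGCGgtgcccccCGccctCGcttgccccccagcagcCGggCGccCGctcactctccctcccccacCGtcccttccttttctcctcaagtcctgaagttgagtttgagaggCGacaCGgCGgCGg
Sox2: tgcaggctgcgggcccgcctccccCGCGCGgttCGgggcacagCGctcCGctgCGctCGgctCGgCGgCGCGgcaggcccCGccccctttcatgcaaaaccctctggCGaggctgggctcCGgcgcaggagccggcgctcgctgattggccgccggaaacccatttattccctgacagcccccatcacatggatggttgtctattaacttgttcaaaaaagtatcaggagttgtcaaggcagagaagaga
Gadd45b: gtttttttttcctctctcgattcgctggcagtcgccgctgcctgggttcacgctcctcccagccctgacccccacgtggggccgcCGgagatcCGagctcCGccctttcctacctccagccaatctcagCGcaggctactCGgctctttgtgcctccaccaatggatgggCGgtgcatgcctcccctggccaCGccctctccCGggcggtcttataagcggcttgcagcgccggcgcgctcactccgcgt
Tlx3: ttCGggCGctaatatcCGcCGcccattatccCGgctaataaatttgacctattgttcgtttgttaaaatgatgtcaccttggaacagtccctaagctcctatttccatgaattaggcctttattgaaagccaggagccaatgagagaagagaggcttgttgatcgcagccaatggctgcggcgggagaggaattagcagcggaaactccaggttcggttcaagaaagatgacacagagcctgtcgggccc
Of the 25 CpGs of the Pax2 stretch 24 were measured, and their levels were 0 to 4.84% with a mean of 1.23%. The 15 measured CpGs of the Sox2 stretch, of 23, had 0 to 1.11% with a mean of 0.307%. The 8 measured CpGs of the Gadd45b stretch, of 23, had 0 to 0.138%. The 5 measured CpGs of the Tlx3 stretch, of 12, had 0.123 to 5.03% with a mean of 2.56%. In Sox2 and Tlx3 all measured CpGs lay in the part of the stretch farther from the start, whereas in Pax2 they ran up to the start.

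The domains held 45292 sites and 786.5 kb. Of the 359 domains, 252 had 4 bins, 79 had 5, 26 had 6 and 2 had 7, so that they were 2000 to 3500 bp long. A member bin had a median of 25 sites, with a median of 7 bp between neighbouring sites. Bins that met the same limits on sites and level in runs of 1 to 3, called narrow bins here, numbered 19246 and had a median of 22 sites. The domains thus took 7.56% of the CpG-dense unmethylated bins, and from 5.35% on chromosome 3 to 11.9% on chromosome 17. On 3 stretches domains lay within 20000 bp of each other: 3 domains on chromosome 2 (rn5, 217845501 to 217876500), 2 on chromosome 4 (229189001 to 229195000) and 2 on chromosome 5 (172725501 to 172741500), at the starts of Phf13 and Klhl21. The 2 on chromosome 2 that start at 217866001 and 217874001 had 0.0878% and 0.0874% in the second table, over the sites both tables hold. Whether they are copies of 1 sequence was not tested, since copied read counts were looked for only beyond 10000 bp.

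In all 7 groups the domains were almost free of methylation. In the second table the mean level of the member bins was 0.957% ± 0.0367 (SD over 12 rats), and the median bin had 0.275%. No methylated read was seen in any of the 12 libraries at 34.7% of the sites, and 81.0% of the sites had a level under 1%. In narrow bins these shares were 42.2% and 86.8%. Of the 1573 member bins, 1326 had at least 3 sites in the first table. Their mean level there was 0.983% ± 0.0925 (SD over 15 rats), and 1317 of them (99.3%) were again under 10%. Of the narrow bins with at least 3 sites there, 99.2% were under 10%. The remaining member bins had fewer than 3 sites there and were not read.

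Whether domains or narrow bins were the more methylated depended on how the bins were weighted. With every bin counted equally, in the first table, which did not choose the domains, domains averaged 0.983% ± 0.0925 and narrow bins 0.876% ± 0.0965 (SD over 15 rats), and the domains were higher by 0.0476 to 0.172 percentage points in 15 of 15 rats. In the second table domains had 0.957% ± 0.0367 and narrow bins 0.776% ± 0.0262 (SD over 12 rats), a difference of 0.160 to 0.208 points in 12 of 12 rats. The median bin was also higher in domains in all 27 rats, with 0.428% in domains and 0.323% in narrow bins of the first table. With bins weighted by their reads the order was the reverse in every rat. Domains then had 0.859% ± 0.104 and narrow bins 2.05% ± 0.509 in the first table, and 0.858% ± 0.0392 and 1.51% ± 0.304 in the second, with domains higher in 0 of 15 and 0 of 12 rats. The 10 narrow bins with the most reads held 14.0% of the reads and 56.3% of the methylated reads of all narrow bins in the first table, and 7.45% and 45.7% in the second. The depth differed too: domain sites had on average 129 reads per library in the second table and narrow-bin sites 146. The part of depth was not tested.

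**Figure D1:**
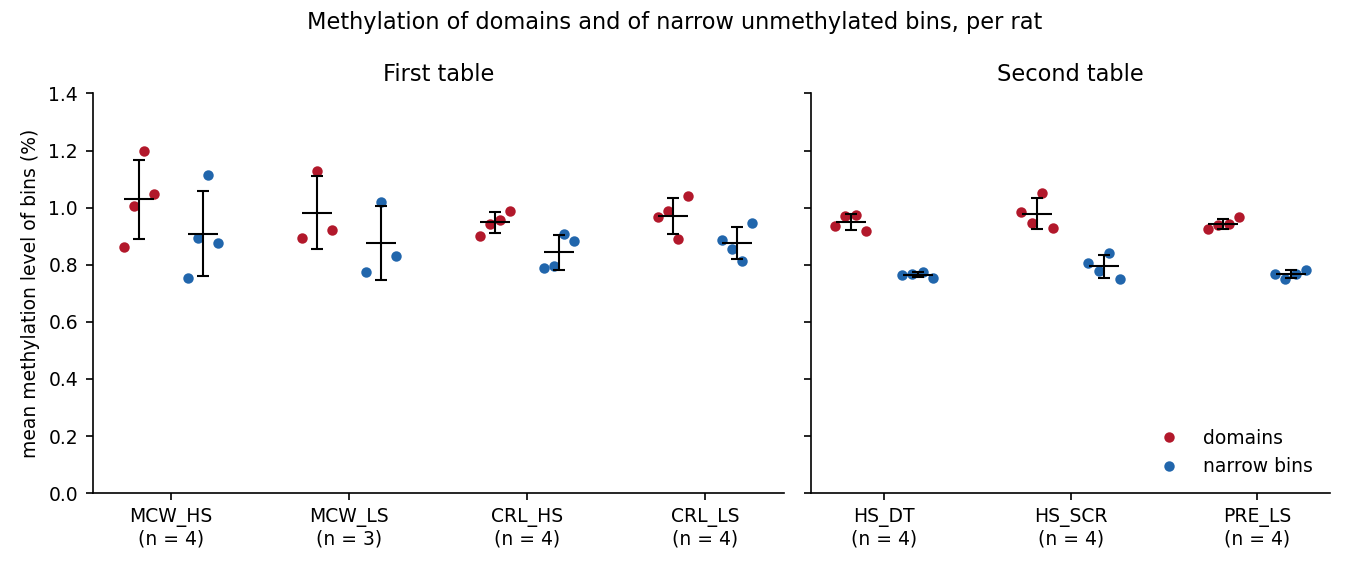
Mean methylation level (%) of domain bins and of narrow unmethylated bins in each rat, by group; points are rats and bars the mean and SD. Domain points lie above the narrow-bin point of the same rat in 15 of 15 rats of the first table and 12 of 12 of the second, and the groups overlap; bins count equally here, and with bins weighted by reads the domains are higher in 0 of 15 and 0 of 12 rats.

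High and low domains of one table were mostly high and low in the other. Domain levels ran from 0.0337 to 7.83% in the second table, with a median of 0.527%; 99 domains were under 0.1% and 130 were at 1% or more. Over the 22021 domain sites that both tables hold, 356 domains had at least 10 such sites, and their levels in the tables were correlated across domains (Pearson r 0.908, Spearman rho 0.918; domains are not independent replicates, and each table shares its libraries over all of them). In 318 of these domains the tables differed by 0.5 points or less. Some domains had the same level as another at the same number of shared sites, so the 356 may not all be distinct regions. The first table was the higher one in 284 of the 356, with a median of 0.463% against 0.316% in the second. The 97 that had less than 0.1% in the second table had a median of 0.237% in the first and 0.0540% in the second over the same sites, and were higher in the first in 97 of 97; they were chosen for a low level in the second table, so this only describes them. The first table was shallower, and its animals were others; the part of either was not tested. The largest differences at shared sites were in the domain of Tgif2, a homeobox repressor, on chromosome 3 (5.05% ± 1.38 in the first table over 15 rats and 1.51% ± 0.329 in the second over 12) and in the highest domain on chromosome 10 (8.56% ± 3.11 and 5.51% ± 1.01).

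**Figure D2:**
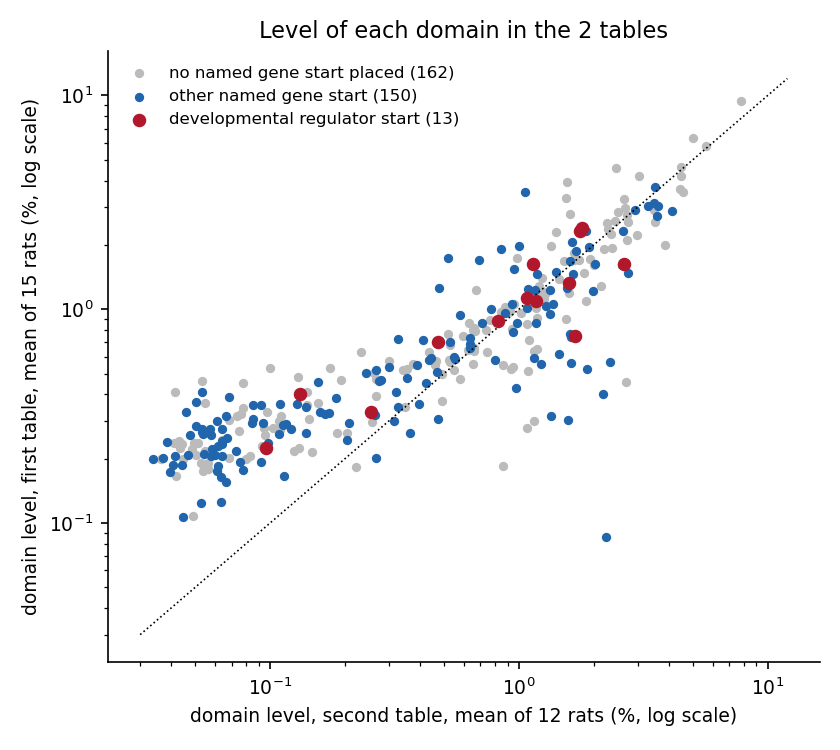
Mean level of each domain with at least 3 bins in the first table, second table on the x axis and first table on the y axis (both %, log scale), coloured by the gene start placed in it; the dotted line marks equal levels. Points mostly follow the line above about 0.5%, with some below it, and lie above it at the low end, and developmental regulators (13 in the plot) lie mostly above 0.5% in both tables.

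Gene starts could be placed on the tables for part of the genome, by the spacing of the CpGs in RefSeq promoter windows of 300 bases. Of 12410 windows with enough CpGs 6559 were placed once, 6500 of them (99.1%) on the chromosome that RefSeq gives, although the chromosome was not used for placing. A start lay in 188 of the 359 domains, and a gene with a name in 178. The windows in domains had a median of 30 CpGs and 69.7% G and C bases, and those in narrow bins 28 CpGs and 66.3%. The GC box GGGCGG (or CCGCCC on the other strand), which factors of the Sp family bind, was in 75.6% of the 213 windows in domains, in 77.3% of the 4822 in narrow bins and in 33.1% of all 33469 windows. The CCAAT box (CCAAT or ATTGG) was in 33.8%, 34.2% and 37.5% of these windows. The letters TATAAA (or TTTATA) were in 5.63%, 3.67% and 14.2%. The shares in domains and in narrow bins lay close together for the GC box and the CCAAT box. Only 12410 of the 33469 windows had the 12 CpGs needed for placing, and GGGCGG itself holds a CpG. The shares over all windows therefore cover many windows that could not be placed, and the part of this was not tested.

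Regulators of development made up a larger share of the genes in domains than of the placed genes. The list covered families such as Pax, Sox, Fox, Nkx, Lhx, Pou, Hox, Wnt and Fgf, chosen by name with earlier results of these data known. Of its 68 placed genes 14 (20.6%) started in a domain, against 188 of all 5285 placed named genes (3.56%). Among genes whose start bin had at least 10 sites and a level under 10%, these shares were 14 of 55 (25.5%) and 188 of 4580 (4.10%). The 14 were Foxb2, Foxc1, Foxd2, Foxo1, Foxq1, Lhx4, Nkx1-1, Nkx6-1, Nkx6-2, Nr2f6, Pax2, Pou4f1, Six5 and Sox2. Further homeobox genes outside the list, seen only after the domains were known, were Tlx3, Pdx1, En2, Gbx1, Gbx2 and Tgif2. The placed homeobox genes that start outside domains were not counted, so these names are examples and give no share.

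The other lists had few placed genes. Of 9 regulators of kidney development 1 (11.1%), Pax2, started in a domain; Hoxd11, Irx1, Irx2, Ret, Sim1, Wnt4, Wnt9b and Wt1 started in unmethylated bins outside domains. Scnn1g, a subunit of the epithelial sodium channel, was the only transport gene of the outer medulla that could be placed, and its start bin held 0 sites of the second table, so it could not have been in a domain. Of the 5 placed genes for methylation enzymes and their partners, Tet3, Kdm2b and Tet2 had 0, 2 and 8 sites in the start bin, under the 10 that a member bin needs. Uhrf1 and Mbd2 had 19 and 38 sites, and neither started in a domain. Dnmt3a could not be placed.

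Domains of developmental regulators stood higher than those of other named genes, though still low. Their median level was 1.155% over 14 domains, against 0.297% over 164 domains with another named gene; in the first table the medians were 1.02% and 0.387%. Of the 14, 9 had a level of 1% or more (64.3%), as had 46 of the 164 (28.0%). The 181 domains with no named start placed lay between, with medians of 0.735% in the second table and 0.630% in the first. Of these 181, 75 (41.4%) had a level of 1% or more. The highest of the 14 was Foxb2 at 2.74% and the next Nkx6-2 at 2.66%. At the low end were Foxo1, a forkhead factor of insulin signalling, at 0.0959%, Six5 at 0.132% and Foxc1 at 0.254%. The 14 were therefore not alike.

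The Pax2 domain (rn5, chromosome 1, 271945001 to 271947500, 5 bins, 167 sites) had a level of 1.67%. In the second table the HS_DT rats had 2.18, 1.92, 1.97 and 1.53%, the HS_SCR rats 1.70, 1.65, 1.22 and 1.75% and the PRE_LS rats 1.96, 1.51, 1.32 and 1.39%. In the first table, over 4 of its bins, the MCW_HS rats had 0.340, 0.759, 0.853 and 1.0801%, the MCW_LS rats 0.426, 0.830 and 0.847%, the CRL_HS rats 1.29, 0.798, 0.281 and 0.720% and the CRL_LS rats 1.13, 0.720, 0.782 and 0.359%. The ranges of the groups overlapped within each table. The levels above rest on the sites of each table, which differ. At the 68 sites that both tables hold, the Pax2 domain had 0.928% in the second table and 0.790% in the first.

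The Sox2 domain (chromosome 2, 140810001 to 140812000, 4 bins, 107 sites) had 1.80% in the second table and 2.40% in the first. Its rats had 1.69 to 2.08% in HS_DT, 1.52 to 1.93% in HS_SCR and 1.62 to 2.02% in PRE_LS. In the first table they had 2.09 to 3.08% in MCW_HS, 1.89 to 3.48% in MCW_LS, 1.66 to 2.81% in CRL_HS and 1.49 to 3.08% in CRL_LS. All groups of a table overlapped here as well.

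The longest domain lay at the start of Kif26b, a kinesin gene that kidney development requires in mouse (chromosome 13, 102193001 to 102196500, 7 bins, 149 sites). It had 0.391% in the second table and 0.549% in the first. The MCW_HS rats had 0.395, 0.541, 1.46 and 0.622% and the MCW_LS rats 0.207, 0.284 and 0.408%; the highest of these was MCW_HS replicate 3. The other domain of 7 bins, on chromosome 6 (79531501 to 79535000), had no placed gene start and stood much higher, at 4.58% in the second table and 3.53% in the first. Others of the 10 longest were those of Ubtf, a factor of ribosomal RNA transcription, at 0.0531%, Bcl2l11, which encodes the cell-death protein Bim, at 0.110%, Tsc22d2 at 0.139%, B3gnt2, a glycosyltransferase gene, at 0.301% and Pou4f1, a factor of sensory neurons, at 1.076%. The remaining 3 had no named start and levels of 0.155, 0.669 and 1.61%. Across the 359 domains the level had a Pearson r of 0.0443 and a Spearman rho of 0.0727 with the number of bins.

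Of the 5 lowest domains in the first table, among those with at least 4 bins there, 3 held a named start, each of a gene that most cell types use. They were those of Hnrnpa2b1, an RNA-binding protein gene, at 0.106% ± 0.102 (SD over 15 rats), Gtf2i, a general transcription factor gene, at 0.126% ± 0.163, and Qki, an RNA-binding protein gene whose domain also holds the start of Cahm, at 0.175% ± 0.228. The other 2, on chromosome 19 and chromosome 17, had no named start and 0.166% and 0.179%. In the second table all 5 were between 0.0418 and 0.0636%. Yy1 and Ep300, which encode a zinc finger factor and a histone acetyltransferase, had similarly low domains in the second table, at 0.0337% and 0.0468%, and so had Cdkn1b, which encodes the cell-cycle inhibitor p27, at 0.0639%.

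The highest domains mostly held no placed start. This was common among all domains as well, since a start lay in only 188 of the 359 and many starts could not be placed. The 5 highest in the first table, among domains with at least 4 bins there, lay on chromosome 6 (144683001 to 144685000, 6.30% ± 2.16 first table and 5.02% ± 1.21 second table), chromosome 18 (28155001 to 28158000, 5.79% ± 2.45 and 5.66% ± 0.728), chromosome 15 (65858501 to 65861000, 4.63% ± 0.771 and 4.48% ± 0.325), chromosome 4 (229189001 to 229191000, 4.19% ± 2.59 and 4.50% ± 0.573) and chromosome 13 (114380501 to 114383500, 3.92% ± 1.95 and 1.56% ± 0.376). None held a placed start. The start of Prob1 lay 11 bp after the domain on chromosome 18, and that of Amn, which encodes amnionless, a partner of cubilin in protein uptake by the proximal tubule, 5019 bp after the one on chromosome 6. Among domains with a named start the highest in the second table were those of Bnc1, a zinc finger gene (4.11%, and 2.89% in the first table), Tmem200b (3.62% and 3.05%), Cpeb1, an RNA-binding protein gene (3.59% and 2.74%), Pdx1, a homeobox factor of the pancreas (3.52% and 3.73%), and Tlx3 (3.48% and 3.13%). These levels rest on the sites of each table. At the 73 sites that both tables hold, the Bnc1 domain had 0.819% in the second table and 1.24% in the first, and at 85 such sites the Cpeb1 domain had 1.56% and 1.87%.

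Around placed starts the low level reached farther in domains than in narrow bins. At 1000 to 1500 bp after the start, the sites had 1.27% ± 0.139 (SD over 15 rats) for 239 starts in domains and 9.63% ± 0.310 for 5216 starts in narrow bins of the first table. At 1500 to 2000 bp they had 4.29% ± 0.267 and 17.9% ± 0.401. In the first 500 bp after the start both were low, 0.571% ± 0.103 and 0.550% ± 0.0917. The width itself was fixed by the rule, so this profile describes the domains.

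**Figure D3:**
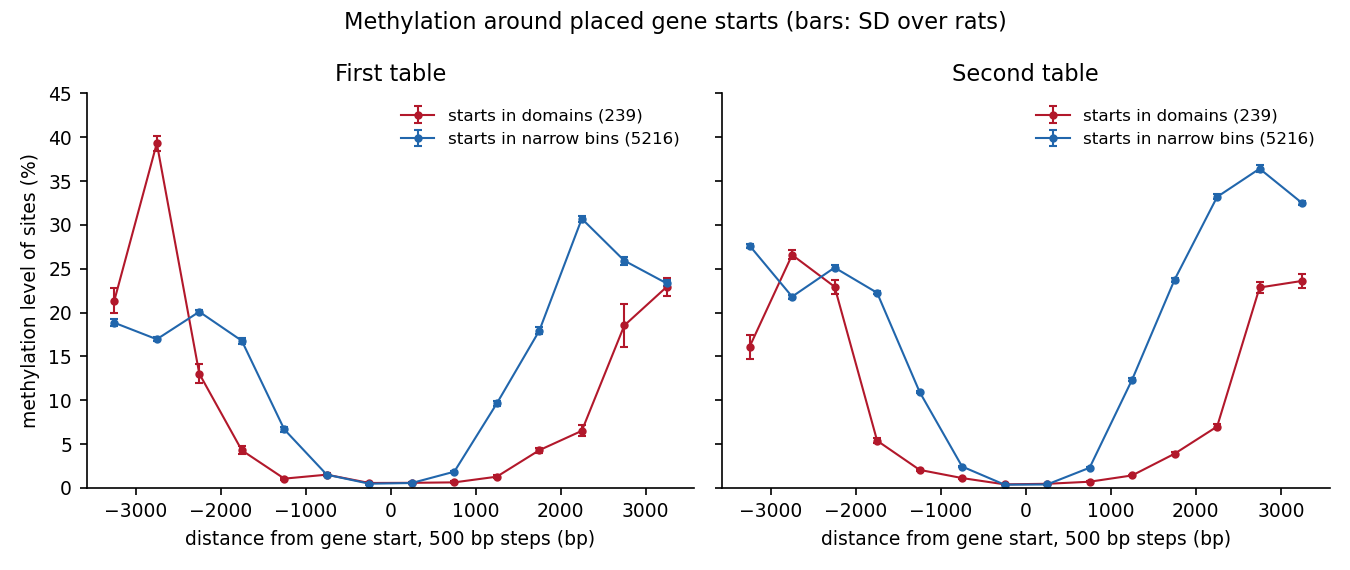
Mean methylation level (%) of sites against distance from the placed gene start (bp, positive in the direction of transcription), for starts in domains and in narrow bins, in each table; bars are the SD over rats. Both curves are near 0 at the start, and the domain curve stays low to about 1500 bp on either side; few sites lie beyond 2000 bp.

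In domains with a placed start, the start bins were on average less methylated than the other bins. These means pool bins over domains, so they do not describe each domain. In the first table the 181 start bins had 0.609% ± 0.111 (SD over 15 rats) and the 506 other bins of the same domains 0.864% ± 0.105, with the start bins lower in 15 of 15 rats. The second table gave 0.470% ± 0.0336 and 0.879% ± 0.0339, lower in 12 of 12. Edge bins were higher than inner bins, so the comparison was also made within each kind. Among edge bins of the first table, start bins had 0.650% ± 0.182 and others 1.12% ± 0.118, lower in 15 of 15 rats. Among inner bins of the first table the levels were 0.591% ± 0.0986 and 0.631% ± 0.1001, lower in 11 of 15 rats, which is a difference smaller than the spread between rats. The inner bins of the second table had 0.418% ± 0.0327 and 0.589% ± 0.0298, lower in 12 of 12. With bins weighted by reads, the start bins were lower in 15 of 15 and 12 of 12 rats over all bins and in 13 of 15 rats among inner bins of the first table. Start bins also held more sites, 33.7 against 27.9 per bin in the second table, and the part of this was not tested.

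The level was higher across the domain edges, as far as the assay reached. The rule fixed part of this, since a neighbouring bin with at least 10 sites and a level under 10% would have joined the domain. The profile therefore describes the domains. The outermost bins of the domains had 1.27% ± 0.107 in the first table (572 bins) and the next bins inward 0.770% ± 0.0885 (642 bins). The second table gave 1.26% ± 0.0525 and 0.704% ± 0.0366 (718 bins each). Of the 718 edges, 65.6% adjoined a bin without any site, so most ends were set by where RRBS has sites and not by a measured rise in methylation. Another 25.2% adjoined a bin under 10% with fewer than 10 sites. At 66 edges the next bin was at 10% or more, with fewer than 10 sites at 50 of them and with 10 or more at 16. Not every adjoining bin with a site was averaged. The mean was 9.30% ± 0.512 over the 107 averaged bins of the first table and 9.43% ± 0.256 over the 192 of the second. The medians over these bins were 2.01% and 1.97%, and 15.9% and 15.6% of them were at 20% or more.

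**Figure D4:**
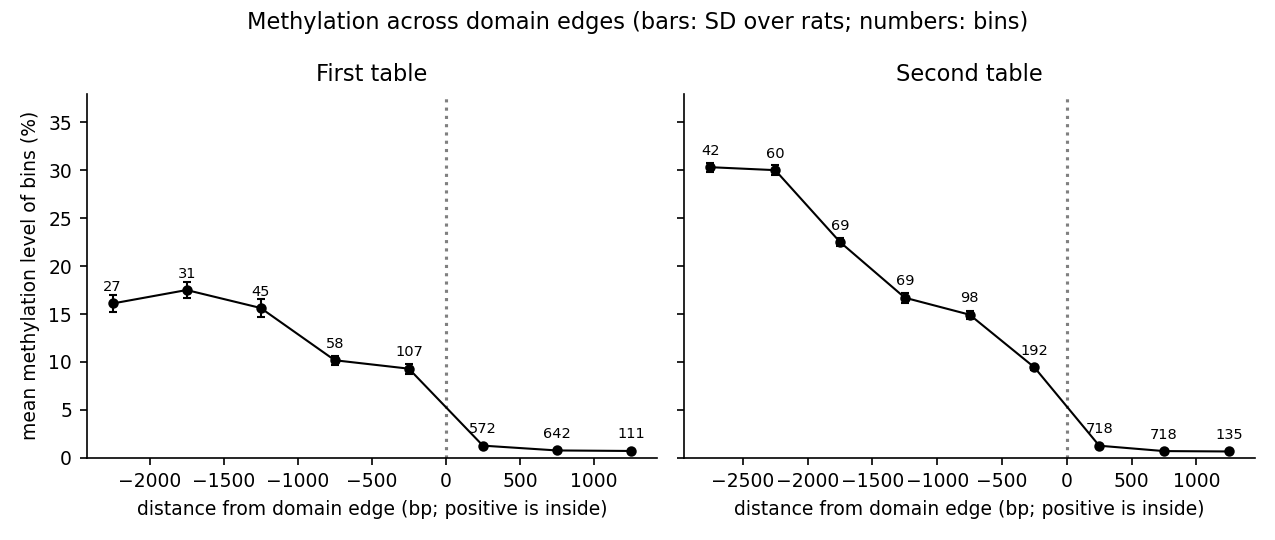
Mean methylation level (%) of bins by distance of the bin centre from the domain edge (bp, negative outside, positive inside), in each table; bars are the SD over rats and numbers the bins behind each point. Points inside lie at 0.66 to 1.27%, those just outside at 9.30 and 9.43% (medians 2.01 and 1.97%); the bins outside are few because most edges adjoin bins without sites.

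Single methylated CpGs inside the domains were rare. Of the 45292 sites 115 (0.254%) had a level above 20% in the second table, in 46 domains. The share was similar in narrow bins, at 0.275% of their sites. Edge bins held 91 of the 115 domain sites (79.1%) and 36.2% of all domain sites. Of the 115, 36 were measured in the first table, and 28 of them were again above 20%. The domain at 28155001 on chromosome 18 held 14 such sites and its highest site had 77.0% ± 8.38 (SD over 12 rats).

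The Gadd45b domain held 4 neighbouring CpGs that were nearly fully methylated amid unmethylated ones. They lay at 11816562, 11816578, 11816593 and 11816622 of chromosome 7 and had 90.7% ± 4.12, 97.1% ± 4.58, 96.4% ± 2.42 and 100% (SD over 12 rats), with 25 to 120 reads per rat. All 4 lay in an inner bin. The site at 11816549 before them had 0% in all 12 rats, and the site at 11816719 after them 0.423% ± 1.12. The 4 sites were not among the sites of the first table. The Gadd45b domain had 0.304% there and 1.58% in the second table, where the HS_DT rats had 1.43, 1.32, 1.56 and 1.06%, the HS_SCR rats 1.69, 1.56, 2.29 and 1.53% and the PRE_LS rats 1.52, 2.04, 1.61 and 1.34%. HS_DT overlapped both other groups. At the 43 sites of this domain that both tables hold, the first table had 0.315% and the second 0.0540%.

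The sites named by rule were measured in both tables. In the domain of Tmem200b on chromosome 5 the CpGs at 153759383, 153759369 and 153759385 had 52.9% ± 6.16, 45.6% ± 5.08 and 42.0% ± 9.09 in the second table (SD over 12 rats). In the first table they had 54.8% ± 17.6, 47.7% ± 17.9 and 36.4% ± 16.8 (SD over 15 rats, 10 to 49 reads). The CpG at 158787797 of chromosome 3, in the Tgif2 domain, had 44.0% ± 12.2 and 54.6% ± 16.4, and that at 54712893 of chromosome 10 had 41.4% ± 14.96 and 46.3% ± 14.3. All 5 were intermediate in the mean of each table.

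Some member bins lay close to the limit of 10%. Just inside it were bins on chromosome 4 (220114001, 9.80%), chromosome 6 (146730001, 9.77%), chromosome 18 (28155001, 9.62%), chromosome 6 (79534501, 9.58%) and chromosome 10 (73189501, 9.57%). Just outside, next to or between dense unmethylated bins, were bins on chromosome 6 (120194501, 10.1%, and 112578501, 10.8%), chromosome 17 (17988001, 10.9%), chromosome 1 (13500501, 10.996%) and chromosome 15 (51052001, 11.4%). The SD between rats of these bins was 1.25 to 3.12 points, so that the limit did not divide them beyond the spread between rats. There were 9 member bins at 10% or more in the first table, at 10.3 to 13.3%, and 2 of them were in the same domain on chromosome 10.

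The mean level of the domains did not differ between the groups by more than the spread between rats. The differences below are descriptions, in percentage points with their standard errors. The level was 1.03% ± 0.139 in the 4 MCW_HS rats and 0.982% ± 0.128 in the 3 MCW_LS rats (SD), a difference of 0.0465 (SE 0.101) that was positive in 7 of 12 pairs of rats. Without MCW_HS replicate 3 it was -0.0105, and without MCW_LS replicate 2 it was 0.120. The level was 0.948% ± 0.0361 in CRL_HS and 0.972% ± 0.0625 in CRL_LS rats (4 each), a difference of -0.0239 (SE 0.0361), positive in 5 of 16 pairs. The salt difference of MCW minus that of CRL rats was 0.0704 (SE 0.108).

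Between colonies on low salt MCW_LS minus CRL_LS was 0.0102 (SE 0.0801, positive in 6 of 12 pairs), and -0.0631 without MCW_LS replicate 2. On high salt MCW_HS minus CRL_HS was 0.0806 (SE 0.0718, positive in 12 of 16 pairs), and 0.0236 without MCW_HS replicate 3. Colony and low-salt diet differed together in the first of these comparisons.

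The 3 groups of the GapmeR experiment overlapped in their domain levels. HS_DT rats had 0.950% ± 0.0281, HS_SCR rats 0.978% ± 0.0543 and PRE_LS rats 0.944% ± 0.0176 (SD, n = 4 each). HS_DT minus HS_SCR was -0.0286 (SE 0.0306, positive in 5 of 16 pairs), and -0.0044 without HS_SCR replicate 3, whose 1.05% was the highest of the 12 rats. HS_SCR minus PRE_LS was 0.0340 (SE 0.0286, positive in 12 of 16 pairs), and 0.00977 without that rat. HS_DT minus PRE_LS was 0.00537 (SE 0.0166, positive in 9 of 16 pairs). HS_SCR replicate 3 was also the highest in narrow bins, at 0.842%.

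The bins were then tested one by one, each with a quasi-binomial model on the read counts and Benjamini-Hochberg adjustment over all bins tested. A bin could be tested with at least 3 sites, 10 methylated and 10 unmethylated reads over the compared rats. This left 996 to 1203 of the 1573 member bins in the comparisons of the first table and 1359 to 1367 in those of the second; the others had too few sites or too few methylated reads. At an adjusted p below 0.05 no member bin was called in any of the 8 comparisons, and neither was any other bin, so that the share called was 0% throughout. With limma on log2 ratios of the counts no bin was called either.

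Salt in MCW rats changed no member bin past the threshold. MCW_HS against MCW_LS had 0 calls among 1060 tested member bins (0% of all 42670 bins called). Unadjusted p was below 0.05 at 67 member bins (6.32%), against 6.54% of all bins, and the rats of the groups did not overlap at 49 member bins (4.62%), against 5.37% of all bins. The median difference was -0.000476 points over member bins and 0.0568 over all bins. The following bins were the 2 in each direction with the smallest p among those without overlap, as in each comparison after this one.

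The bin at 21190501 of chromosome 16, in the domain of Ndufa13, which encodes a subunit of respiratory complex I, had 4.72, 6.94, 5.31 and 7.88% in MCW_HS rats and 2.22, 3.37 and 0.826% in MCW_LS rats. Every MCW_HS rat was above every MCW_LS rat, but the difference was 4.07 points (SE 1.03), with an adjusted p = 0.662 (quasi-binomial fit). The bin at 18019001 of chromosome 3 had 4.91% ± 0.590 and 0.601% ± 1.04 over 3 sites. In the other direction, the bin at 24692501 of chromosome 12, whose nearest placed start was that of Ap1s1, an adaptor protein gene, 12563 bp before the domain, had 3.77, 4.54, 2.79 and 3.70% in MCW_HS rats and 8.18, 6.68 and 8.33% in MCW_LS rats. The bin at 100534501 of chromosome 7 had no methylated read in the 4 MCW_HS rats, which allows up to 0.116%, and 0.447% ± 0.258 in MCW_LS rats. The adjusted p was 0.662 for each.

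In CRL rats the outcome was the same. CRL_HS against CRL_LS had 0 calls among 996 tested member bins (0% of all 41254). Unadjusted p was below 0.05 at 82 (8.23%), against 6.74% of all bins, and 32 did not overlap (3.21%), against 3.06%. The median difference was -0.0409 points over member bins and 0.0395 over all. When 1 dispersion was used for all bins, a single member bin was called among 284 bins in all (quasi-binomial model, adjusted p = 0.0361). It lay in the highest domain, at 73189001 of chromosome 10, and had 3.03% ± 1.09 in CRL_HS rats and 7.71% ± 3.87 in CRL_LS rats; in the main quasi-binomial fit its adjusted p was 0.639.

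The bin at 81424001 of chromosome 14, in the domain of Adra2c, the alpha-2C adrenergic receptor gene, had 1.28, 1.59, 1.53 and 2.12% in CRL_HS rats and 0.658, 0.811, 0.628 and 0.718% in CRL_LS rats. Its 36 sites gave 1092 to 2290 reads per rat, and the difference of 0.928 points (SE 0.181) had an adjusted p of 0.568. The bin at 40405501 of chromosome 6 had 5.96% ± 0.691 and 3.22% ± 0.786. No methylated read was seen in the 4 CRL_HS rats at 82751501 of chromosome 16 (up to 0.109% allowed) and at 33901001 of chromosome 11 (up to 0.253% allowed). There the CRL_LS rats had 0.526% ± 0.345 and 1.11% ± 0.781. The adjusted p was 0.568 to 0.610 for these 4 bins in the quasi-binomial fit.

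The test of whether the salt difference itself differed between the colonies had 0 calls among 1203 member bins (0% of all 46584), with 79 member bins (6.57%) and 6.39% of all bins at an unadjusted p below 0.05. No member bin was named for it.

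Between the colonies on low salt, MCW_LS against CRL_LS had 0 calls among 1038 tested member bins (0% of all 42094). In 72 bins the unadjusted p was below 0.05 (6.94%, against 6.37% of all bins), and 54 did not overlap (5.20%, against 5.21%). The bins named in this comparison included 2 in domains of developmental regulators. In the domain of Nkx6-2, a homeobox factor of neurons and glia, the bin at 218848001 of chromosome 1 had 1.67, 2.00 and 2.70% in MCW_LS rats and 0.610, 0, 0.216 and 0.461% in CRL_LS rats. In the domain of Foxq1, a forkhead factor, the bin at 36109501 of chromosome 17 had 0.582, 0.442 and 0.201% in MCW_LS rats and 1.42, 1.35, 1.68 and 0.757% in CRL_LS rats. The differences were 1.80 points (SE 0.332) and -0.896 points (SE 0.225), with adjusted p of 0.619 and 0.629. With a minimum of 20 reads per site the difference of the Foxq1 bin was -0.0304 points. The other 2 bins were at 55216001 of chromosome 14 (1.86% ± 0.0799 in MCW_LS and 0.214% ± 0.427 in CRL_LS rats) and at 11353001 of chromosome 17, whose nearest placed start was that of Neurog1, a factor of neuron formation, 37287 bp before the domain (2.86% ± 0.872 and 9.35% ± 2.78), with adjusted p of 0.666 and 0.619. The bin on chromosome 14 differed by 1.65 points, and by 1.01 with a minimum of 5 reads.

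On high salt, MCW_HS against CRL_HS had 0 calls among 1015 tested member bins (0% of all 41979). Unadjusted p was below 0.05 at 73 (7.19%, against 6.63% of all bins), and 30 did not overlap (2.96%, against 3.04%). The bin with the smallest p lay at 73188501 of chromosome 10, in the highest domain. Its MCW_HS rats had 3.11, 3.98, 5.23 and 2.96% and its CRL_HS rats 16.5, 16.5, 23.4 and 11.4%, a difference of -13.1 points (SE 2.53) over 8 sites and 91 to 306 reads per rat. The groups were far apart, but the quasi-binomial fit gave an adjusted p = 0.628. The bin at 157275501 of chromosome 5, in the domain of Runx3, a factor of lymphocyte and neuron development, had no methylated read in MCW_HS rats (up to 0.659% allowed) and 3.23% ± 1.61 in CRL_HS rats over 4 sites. In the other direction, the bin at 144271001 of chromosome 6, in the domain of Ckb, the brain-type creatine kinase gene, had 0.259, 1.35, 1.51 and 1.35% in MCW_HS rats and no methylated read in CRL_HS rats (up to 0.218% allowed). This difference was 1.12 points, and 0.628 with a minimum of 5 reads per site. The bin at 37101501 of chromosome 15 had 2.28, 2.24, 2.06 and 2.33% in MCW_HS rats and 0.504, 0.912, 1.04 and 1.26% in CRL_HS rats. All 4 had an adjusted p of 0.628.

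The domain on chromosome 10 (73188001 to 73190000, 4 bins, 115 sites) was the highest of all, at 7.83% in the second table, and was looked at after its values were seen. The start of Tbx4, a T-box factor of limb and lung development, was the nearest one placed, 45439 bp after it. Over the 3 bins with sites in the first table, the MCW_HS rats had 4.13, 7.76, 4.40 and 7.29%, the MCW_LS rats 9.93, 7.67 and 5.45%, the CRL_HS rats 11.3, 10.99, 14.2 and 9.50% and the CRL_LS rats 10.5, 7.83, 11.8 and 19.1%. All MCW_HS rats were below all CRL_HS rats, whereas the low-salt groups of the colonies overlapped. In the second table, all of MCW rats, the HS_DT rats had 7.30% ± 0.869, the HS_SCR rats 7.75% ± 1.06 and the PRE_LS rats 8.45% ± 0.837, and the groups overlapped. The bins of the domain were not alike: MCW_HS and CRL_HS rats had 8.00% ± 3.07 and 14.5% ± 1.87 in the bin at 73188001, but 5.86% ± 3.70 and 3.03% ± 1.09 in the bin at 73189001.

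**Figure D5:**
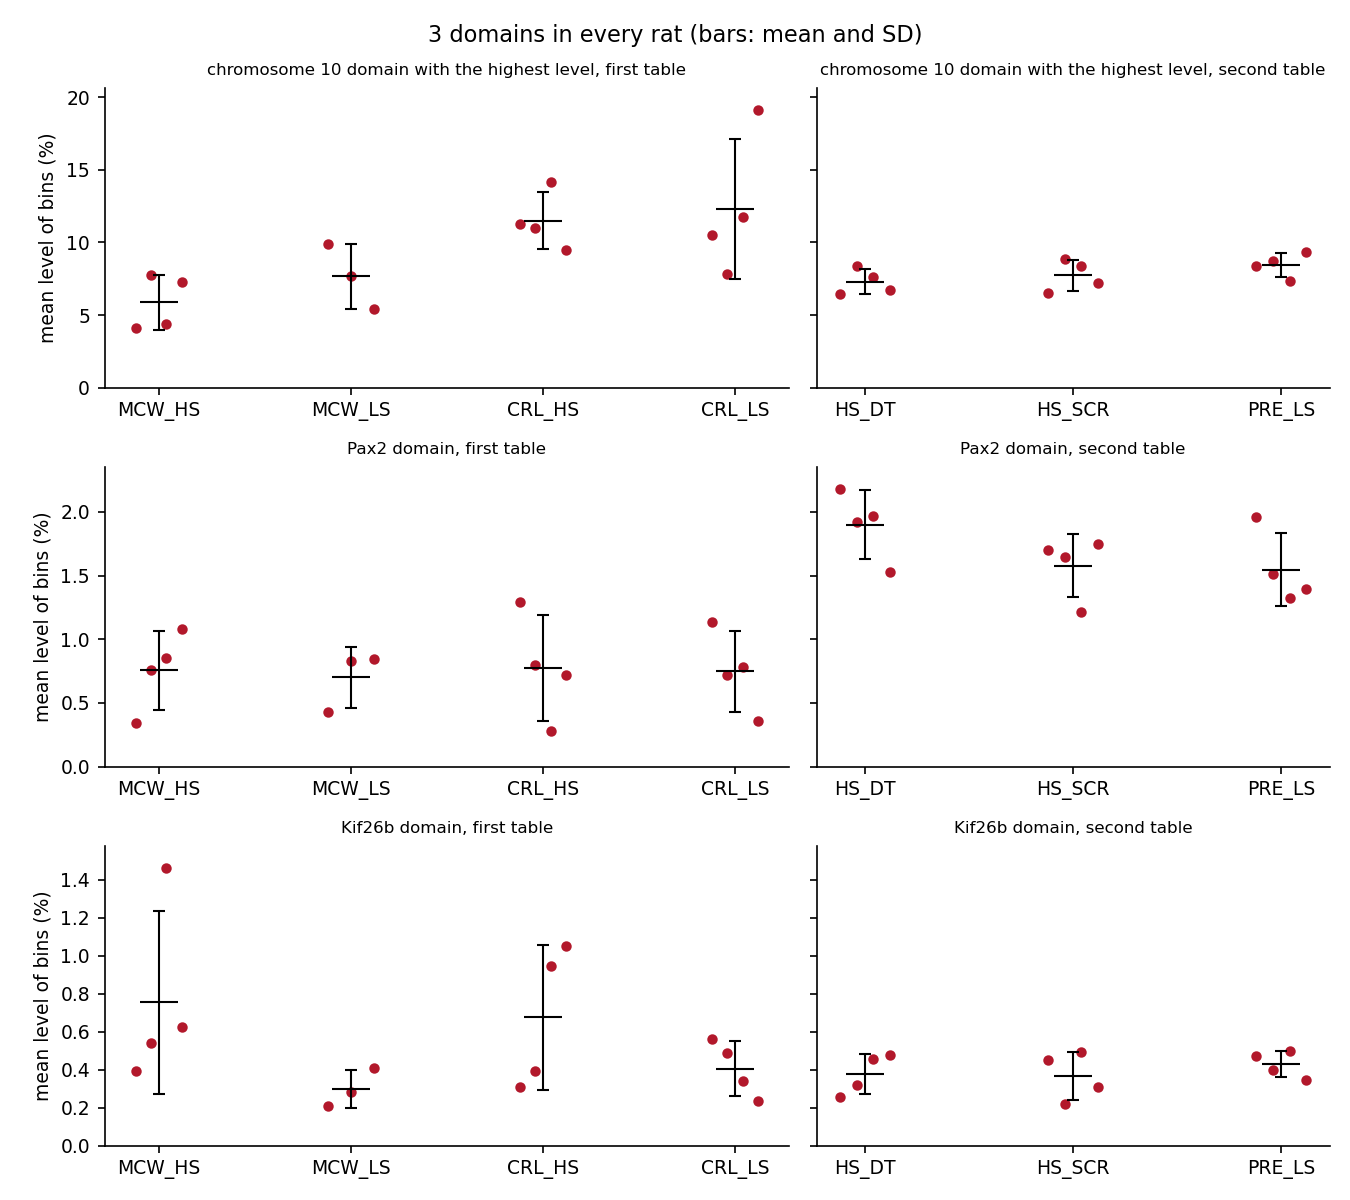
Level (%, mean of bins) of the highest domain on chromosome 10, the Pax2 domain and the longest domain (Kif26b) in every rat, by group and table; points are rats and bars the mean and SD. In the top row the MCW_HS rats lie at 4.13 to 7.76% and the CRL_HS rats at 9.50 to 14.2%; in the other rows the groups of each table overlap, with MCW_HS replicate 3 of the Kif26b row the highest at 1.46%.

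In the GapmeR experiment, HS_SCR against PRE_LS had 0 calls among 1359 tested member bins (0% of all 118509). In 66 bins the unadjusted p was below 0.05 (4.86%, against 5.05% of all bins), and 31 did not overlap (2.28%, against 2.69%). The bin at 220114501 of chromosome 4, in the domain of Tmem121b, had 1.99, 1.91, 1.49 and 2.03% in HS_SCR rats and 0.954, 0.628, 0.950 and 1.01% in PRE_LS rats. The bin at 107678001 of chromosome 14, in the domain of B3gnt2, had 0.302, 0.629, 0.370 and 0.786% in HS_SCR rats and 1.76, 3.17, 1.23 and 1.496% in PRE_LS rats. The differences were 0.969 (SE 0.152) and -1.39 points (SE 0.448), with an adjusted p of 0.975 each. The bin at 80162501 of chromosome 16 had 5.11% ± 0.334 and 4.01% ± 0.474. The bin at 252486501 of chromosome 1, in the domain of Vldlr, a lipoprotein receptor gene, had 0.116% ± 0.0732 and 0.409% ± 0.0999.

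HS_DT against HS_SCR, the comparison that holds the GapmeRs against Dnmt3a and Tet3, had 0 calls among 1360 tested member bins (0% of all 118443). Unadjusted p was below 0.05 at 61 (4.49%, against 4.79% of all bins), and 39 did not overlap (2.87%, against 2.62%). The median difference was -0.00627 points over member bins and 0.00186 over all bins. A bin in the domain of Kdm2a had the smallest p; Kdm2a encodes a histone demethylase that binds unmethylated CpGs. This bin, at 226509501 of chromosome 1, had 2.23, 1.78, 1.96 and 2.37% in HS_DT rats and 3.43, 3.44, 5.59 and 4.24% in HS_SCR rats. The difference was -2.09 points (SE 0.526) over 21 sites and 3648 to 5058 reads per rat, and the quasi-binomial fit gave an adjusted p = 0.9997; the highest rat was HS_SCR replicate 3. The bin at 27608501 of chromosome 15 had 1.62% ± 0.147 and 2.62% ± 0.387. In the other direction, the bin at 19772501 of chromosome 14, in the domain of Adamts3, a procollagen-processing protease gene, had 0.404, 0.390, 0.273 and 0.301% in HS_DT rats and no methylated read in HS_SCR rats (up to 0.0526% allowed). The bin at 217093001 of chromosome 4 had 1.05% ± 0.149 and 0.467% ± 0.193.

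HS_DT against PRE_LS had 0 calls among 1367 tested member bins (0% of all 118327). Unadjusted p was below 0.05 at 94 (6.88%, against 5.47% of all bins), and 41 did not overlap (3.00%, against 3.03%). The bin at 1663501 of chromosome 7 had 3.29, 3.86, 4.00 and 3.29% in HS_DT rats and 2.82, 2.65, 2.23 and 2.42% in PRE_LS rats. The bin at 66469001 of chromosome 5 had 3.48% ± 0.394 and 2.59% ± 0.243. Lower in HS_DT rats were bins at 31490501 of chromosome 6 (0.120% ± 0.0633 and 0.521% ± 0.210) and at 112579001 of the same chromosome (0.0473% ± 0.0441 and 0.232% ± 0.0721). The adjusted p was 0.797 to 0.806 for these 4 bins in the quasi-binomial fit. Each group of this experiment enters 2 of its 3 comparisons, so these share rats.

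Differences of single member bins were small next to those of other bins. From the 5th to the 95th percentile, HS_DT minus HS_SCR ran from -0.641 to 0.463 points over member bins and from -4.19 to 4.22 over all bins tested. For MCW_HS minus MCW_LS these ranges were -0.901 to 1.51 and -4.59 to 6.50 points. A bin near 0% can move less in points than a bin of intermediate level, so this follows the levels that the rule fixed.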

How the data were processed

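RRBS was made from the renal outer medulla of 27 rats, 1 library each. The authors deposited 2 tables that list, for each CpG and library, the counts of C and T reads, per the file headers; the counts are not normalized, and the strands of a CpG share a row. The submitters' processing notes name Trim Galore 0.2.5 and the build rn5. The aligner and methylation caller are, for these files, not given in the sources used here. Coordinates are rn5 unless GRCr8 is named.

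A site had at least 10 reads in every library of its table. A bin's level is the summed C over the summed C and T reads of its sites, in percent; mean levels weight bins equally. Each bin was tested with a quasi-binomial model, 1 value per rat, with the dispersion moderated by limma 3.58.1 (R 4.3.3) and held at 1 or more, a two-sided F test and Benjamini-Hochberg adjustment over all bins tested. The test was checked on simulated counts. Where a group had no methylated read, the level that 3 reads of its total would give is printed as the limit; it covers counting error only. Groups came from the labels, which do not say that rats of a group were raised apart, so p-values measure the spread between these rats. In MCW_LS the title and the column name put the same letters on different replicates, and columns were matched by animal number. Python 3.11.15, numpy 2.4.6, scipy 1.17.1, pandas 2.3.3 and matplotlib 3.10.9 were used for the other steps.

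Depth limits the low levels: the shallowest library had 30.6 reads per domain site, too few to read levels near 1% at a single site, so levels are given over bins. In 65 member bins (4.13%) some position had read counts identical in all libraries to those of a site more than 10000 bp away or on another chromosome. At 89 sites that both tables hold, the domains at 62438001 and 63045001 of chromosome 2 both had 0.0445% ± 0.0238 in the second table. At 54 such sites those at 64035501 and 64771001 of chromosome 17 both had 0.101% ± 0.0468. The 359 domains may therefore not all be distinct regions.

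RefSeq promoter windows (GRCr8) were placed on the tables where at least 12 listed CpGs fell on the window's CpGs and on 1 place of the genome only; this step was chosen after the files had been seen, and no rn5 annotation was used. The domains and gene lists were chosen with earlier results of these data known. Named were the 10 longest domains, the 5 highest and 5 lowest in the first table with at least 4 bins there, the 5 bins on either side of the 10% limit, the 2 bins per direction and comparison with the smallest p among bins without overlap, and the 5 highest sites measured in both tables. Other names were chosen after their values were seen. The alternatives tried were other limits on reads, sites, level and run length, weighting by reads (for domains against narrow bins and for start bins added after seeing the data), 1 dispersion for all bins, limma on log2 ratios, the replicate block and leaving out each rat.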

Additional observations from a re-analysis of the deposited data

Results flagged for a closer look

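Among 78 groups of 4 rats at named bins and sites, 8 had 1 rat far from the other 3 by Dixon's test at the 95% level. For normally distributed values chance gives this in about 1 of 20 groups. Several of these bins lie near 0% and were picked for groups without overlap, so the 8 cannot be set against that rate. In the bin at 82751501 of chromosome 16 the highest CRL_LS rat had 1.04% and the next 0.410%. At 55216001 of chromosome 14 a CRL_LS rat had 0.855% and the other CRL_LS rats 0%, where any single rat above 0% would be flagged. At 144271001 of chromosome 6, in the Ckb domain, the lowest MCW_HS rat had 0.259% and the next 1.35%. At 220114501 of chromosome 4, in the Tmem121b domain, the lowest PRE_LS rat had 0.628% and the next 0.950%. At 80162501 of chromosome 16 the lowest HS_SCR rat had 4.61% and the next 5.25%. At 112579001 of chromosome 6 the highest PRE_LS rat had 0.339% and the next 0.205%. At the CpG 153759369 of chromosome 5, in the Tmem200b domain, a CRL_HS rat had 100% and the next 46.7%. At the CpG 54712893 of chromosome 10 the highest CRL_HS rat had 64.7% and the next 38.9%.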

How the results depend on the processing

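The count of member bins called was 0 under every alternative tried in all 8 comparisons, leaving out each rat in turn included (0 to 0), except that 1 dispersion for all bins called 1 bin in CRL_HS against CRL_LS. With the replicate block the count was 0 in each comparison. The deviations of 26 same-numbered pairs from their group means had correlations of -0.0402 to 0.0235, and 5 of the 26 correlated best with their own number. Deviations of single bins hold much counting error, so these values cannot decide whether the numbers of the labels pair the rats. The smallest adjusted p of a member bin over the alternatives, apart from that call, was 0.0671, in MCW_LS against CRL_LS. The domain level differences, in points, when each rat was left out were -0.0105 to 0.120 for MCW_HS against MCW_LS, -0.0510 to -0.000875 for CRL_HS against CRL_LS, -0.0631 to 0.0536 for MCW_LS against CRL_LS, 0.0236 to 0.136 for MCW_HS against CRL_HS, 0.0134 to 0.144 for the salt difference of MCW minus CRL, 0.00977 to 0.0509 for HS_SCR against PRE_LS, -0.0455 to -0.0044 for HS_DT against HS_SCR and -0.00342 to 0.0162 for HS_DT against PRE_LS. With domains of 6 or more bins, which are fewer, they were 0.152 for CRL_HS against CRL_LS, 0.147 for MCW_LS against CRL_LS, -0.0356 for MCW_HS against CRL_HS and -0.183 for the salt difference. The number of member bins was 4852 with runs of 3 or more, 170 with runs of 6 or more, 3699 with 5 or more sites per bin and 365 with 20 or more. The share of member bins under 10% in the first table was 99.2 to 99.5% under its 3 alternatives. With bins weighted by reads, an alternative chosen after seeing the data, the mean difference of domains minus narrow bins was -1.19 points (first table) and -0.649 points (second table), against 0.107 and 0.182 with bins weighted equally. In the comparisons, 370 to 577 member bins could not be tested in the first table and 206 to 214 in the second, for too few sites or too few methylated reads.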
